A study of Mus musculus with 6 samples.

Results

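The small leucine-rich proteoglycans are secreted core proteins built of leucine-rich repeats, most of which carry glycosaminoglycan chains. Members were the probe sets whose platform annotation gave exactly 1 gene symbol, equal to Aspn, Fmod, Dcn, Bgn, Lum, Ogn, Prelp, Omd, Podn or Kera. These 10 genes, of 18193 named on the array, had 21 of the 45037 probe sets of the Affymetrix Mouse430_2 array. Total RNA came from primary dermal fibroblasts, explanted from skin of B6 mouse pups of mixed sex, labelled as 0 to 2 days old and as passage 6. Cells were divided between untreated control cultures (3 replicates) and cultures given 100 nM synthetic peptide Et1 for 24 hours (3 replicates). Et1, or endothelin 1, is a vasoconstrictor hormone. All cultures were kept in serum-containing medium rich in glucose. The labels call the replicates biological but do not name the animals, so p-values measure the spread between these 6 arrays. The symbol rule reads no signal, but the family was picked on the Et1 differences of these arrays, with those of Aspn and Fmod already known. Values of Et1 against control are therefore a description of the family and support nothing about it.

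Small leucine-rich proteoglycans coat collagen fibrils, where they set fibril spacing and width, and several of them bind transforming growth factor beta. In skin, decorin and lumican are best known for keeping fibrils even, and biglycan also signals to innate immune receptors when it is released from the matrix. The family is sorted by sequence, and the members listed here are not all of it. Among these members, decorin, biglycan and asporin belong to class I, and fibromodulin, lumican, PRELP, keratocan and osteomodulin to class II. Osteoglycin belongs to class III and podocan to class V.

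Many of these genes lie side by side in the mouse genome. In the order of protein-coding genes in RefSeq (assembly GRCm38.p6), Aspn, Omd and Ogn were neighbours on chromosome 13. Prelp and Fmod were neighbours on chromosome 1, and Dcn, Lum and Kera on chromosome 10. Bgn on chromosome X and Podn on chromosome 4 had no member beside them. The 250 bases before the annotated start are shown for Aspn and Fmod, the genes with called differences, and for Bgn, the tested member with the smallest one. The sequences come from RefSeq (GRCm38.p6), run 5′ to 3′ on the gene's strand, and have motif matches in capitals.

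Aspn, chr13:49544193-49544442, plus strand: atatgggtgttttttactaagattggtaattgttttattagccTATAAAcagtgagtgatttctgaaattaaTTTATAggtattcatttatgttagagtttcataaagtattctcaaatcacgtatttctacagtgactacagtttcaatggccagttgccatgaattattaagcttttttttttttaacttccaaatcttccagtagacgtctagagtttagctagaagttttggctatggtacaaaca

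Fmod, chr1:134037004-134037253, plus strand: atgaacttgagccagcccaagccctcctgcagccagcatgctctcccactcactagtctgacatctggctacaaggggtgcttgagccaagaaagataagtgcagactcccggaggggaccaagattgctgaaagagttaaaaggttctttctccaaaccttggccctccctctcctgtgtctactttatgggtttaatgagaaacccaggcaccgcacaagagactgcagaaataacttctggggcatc

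Bgn, chrX:73483351-73483600, plus strand: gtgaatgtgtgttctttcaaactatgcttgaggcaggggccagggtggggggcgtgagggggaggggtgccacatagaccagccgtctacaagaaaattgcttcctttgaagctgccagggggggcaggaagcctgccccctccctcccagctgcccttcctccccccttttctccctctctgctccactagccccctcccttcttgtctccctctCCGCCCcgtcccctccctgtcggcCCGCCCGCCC

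RefSeq gave such a window for 8 of the 10 genes. The motifs searched on both strands were the TATA box (TATAAA), the AP-1 site (TGANTCA), the GC box (GGGCGG) and the CArG box. Of 32851 windows of that length, 12.4% held TATAAA, 6.75% TGANTCA, 32.7% GGGCGG and 1.47% a CArG box. The window of Aspn held TATAAA once on each strand, starting 207 and 178 bases before the start, and that of Ogn held it on both strands in overlapping letters. The Bgn window held 3 matches to GGGCGG on the other strand, 2 of them overlapping, and the first of the 2 Podn windows held 2. No match to any of the 4 motifs was found in the Fmod, Prelp, Omd or Kera windows, and no member window held TGANTCA or a CArG box. The share of G and C in the Aspn window lay at the 1.47 percentile of all windows. It was 38.4% for Omd, 42.0% for Ogn, 42.4% for Kera, 51.2% for Fmod, 55.6% for Prelp, 64.4% for Bgn, and 78.0% and 64.0% for Podn, against a median of 52.4% over all windows. These shares describe the windows, and their relation to the signals was not tested.

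Deposited MAS5 signals had 2% trimmed means of 91.75 to 179.1 per array and were scaled to 138.5 in every array. Signals below are these scaled values, and signals of different probe sets are not set against each other. Probe sets averaging at least 41.0, the median of all, were tested with limma; there were 22519, of which 14 belonged to 7 family genes. Of the dermal fibroblast markers 12 of 12 genes passed this filter, where 11666 of the 18193 named genes did. It was also passed by 7 of 9 keratinocyte, 5 of 8 melanocyte and 7 of 8 smooth muscle and pericyte markers, so passing does not identify a cell type. The arrays were also cut into a low and a high set at the largest gap, 1.17, in the mean log2 signal of poly(A) spike-in control probe sets. A low set (Et1 replicate 2 with control replicates 1 and 2) had values of 3.52 to 3.82. A high set (Et1 replicates 1 and 3 with control replicate 3) had 5.88, 4.99 and 6.165, in that order, and so was itself spread.

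Of the 7 genes with tested probe sets, Aspn, Fmod, Prelp and Ogn had lower mean signals in Et1 cultures in each of their 9 tested probe sets, with log2 differences (Et1 minus control) from -2.51 to -1.07. Bgn, Dcn and Podn had differences from -0.37 to 0.04 in 5 probe sets. Lum, Omd and Kera stayed below the filter. Limma called 3 of the 14 probe sets, both of Aspn and 1 of Fmod, all lower, where 0.249% of all tested probe sets were called lower. It called 0 of the 14 higher, where 0.0977% of all were. At an unadjusted p under 0.05, 9 of the 14 were lower, against 6.38% of all, and 9 differed by more than 1 downward on the log2 scale, against 1.91%. All 3 Et1 signals lay under all 3 control signals in 8 of the 14, against 8.11% of tested probe sets. Counting untested ones too, this held for 10 of the 21, against 6.07% of the 45037. The median difference of the 14 was -1.72, and that of all tested probe sets 0.03. Of the 14, 6 had an Et1 mean under 41.0 and passed the filter through their control signals, so they had to differ. The called Fmod probe set was 1 of these. Over all 21 probe sets the median was -1.07, with 18 lower and 3 higher means, against a median of 0.05 over the 45037. In cultures, fewer cells that make a transcript and less of it per cell cannot be told apart.

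**Figure D1:**
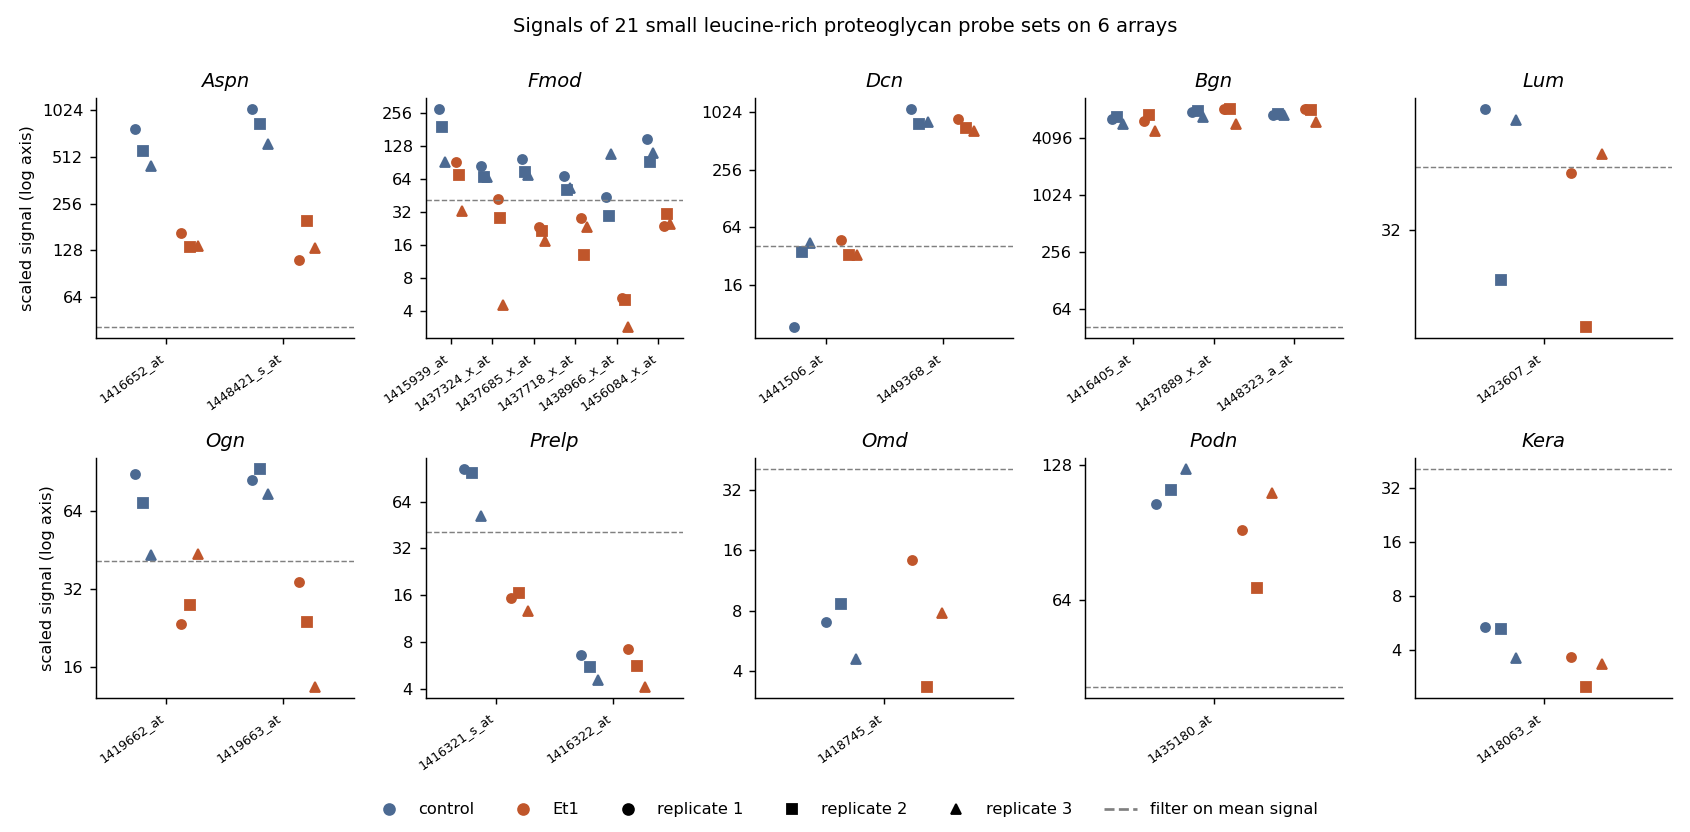
Scaled signal on a log axis for each of the 21 probe sets, with control arrays in blue, Et1 arrays in orange and a symbol per replicate number; the dashed line is the filter at a mean signal of 41.0. In Aspn and in the 6 probe sets of Fmod every Et1 point lies under every control point, while the groups overlap in Bgn and Dcn.

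**Figure D2:**
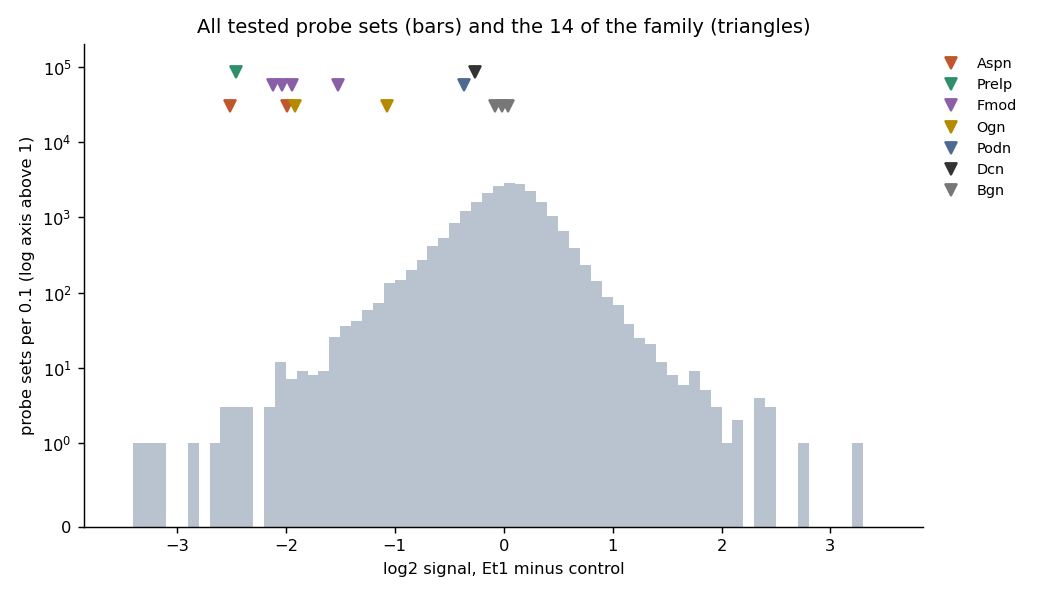
Number of all 22519 tested probe sets in steps of 0.1 of the log2 difference, Et1 minus control (bars, log axis above 1), with the 14 family probe sets as triangles whose height has no meaning. The Aspn, Fmod, Prelp and Ogn probe sets lie between -2.51 and -1.07, and those of Bgn, Dcn and Podn lie between -0.37 and 0.04.

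Among the class I genes, Aspn fell. Asporin binds collagen, can bind calcium through a run of aspartates and restrains transforming growth factor beta. Probe set 1448421_s_at of Aspn read 1043, 832 and 618.5 on control replicates 1, 2 and 3, and 111, 197 and 132 in Et1 replicates 1, 2 and 3. Each control signal was above each Et1 signal. On the log2 scale the SD was 0.38 in control and 0.42 in Et1 arrays. Means were 831 ± 212 and 147 ± 44.4 (SD, n = 3), a 5.70-fold lower signal in Et1 cultures (log2 difference -2.51, SE 0.26, limma adjusted p = 0.0143). Probe set 1416652_at of Aspn read 772, 559 and 444 on control arrays and 165, 135 and 136 on Et1 arrays. It gave the same picture, with no overlap and a log2 difference of -1.99 (SE 0.22, limma adjusted p = 0.0191). In both probe sets control replicate 1 was the highest and control replicate 3 the lowest control. The limma call of Aspn was lost with either control replicate 1 or 2, or Et1 replicate 1 or 3, left out. For 1448421_s_at the adjusted p was then 0.076, 0.102, 0.0934 and 0.11, with log2 differences of -2.49 to -2.33.

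Decorin and biglycan, the other class I members, each carry chondroitin or dermatan sulfate. Probe set 1449368_at of Dcn read 1109, 768 and 800.4 on control arrays and 872, 704 and 644 on Et1 arrays, so the groups overlapped. The log2 difference was -0.26, with a 95% interval of -0.70 to 0.17 that does not reach -1. The other probe set of Dcn, 1441506_at, lay below the filter at 5.805 to 47.4. Probe set 1437889_x_at of Bgn read 7646, 7867 and 6794 on control arrays and 8338, 8238 and 5774 on Et1 arrays. The lowest and the highest of the 6 signals were both Et1 arrays. Its log2 difference was -0.014 (95% interval -0.38 to 0.35), and the other Bgn probe sets stood at -0.079 (-0.43 to 0.27) and 0.042 (-0.28 to 0.37). The intervals of the Aspn probe sets ran from -3.11 to -1.92 and from -2.49 to -1.49. The family was picked with the Aspn difference known, so these intervals are no test against those of Bgn and Dcn. A difference between genes was not tested.

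Among the class II genes, Fmod was lower in every one of its 6 probe sets, with no overlap of the groups in any. Fibromodulin carries keratan sulfate, binds collagen and takes part in fibril assembly and cross-linking. Its called probe set, 1456084_x_at, read 149, 92.1 and 110.2 on control arrays and 24.0, 31.0 and 25.1 on Et1 arrays. Means were 117 ± 29.0 and 26.7 ± 3.78 (SD, n = 3; log2 difference -2.11, SE 0.28, limma adjusted p = 0.0304). Its brightest probe set, 1415939_at, was more variable, at 279, 191 and 92.1 on control arrays and 90.6, 70.2 and 32.8 on Et1 arrays. The lowest control and the highest Et1 signal nearly met, and the difference of -1.52 did not pass (SE 0.47, limma adjusted p = 0.244). The other 2 tested probe sets of Fmod had differences of -1.94 (adjusted p = 0.0609) and -2.03 (adjusted p = 0.332), the second with Et1 signals from 4.56 to 41.8. The 2 untested ones, 1437718_x_at and 1438966_x_at, had control means of 56.9 and 60.1 and Et1 means of 21.6 and 4.40. The suffix x marks probe sets in which some probes may also match other transcripts, and 5 of the 6 Fmod probe sets carry it. The call of 1456084_x_at was lost without control replicate 1 (adjusted p = 0.257) or 2 (0.123) and without Et1 replicate 1 (0.121) or 3 (0.167). It was also lost with no filter (adjusted p = 0.0525).

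Prelp, the neighbour of Fmod, also had lower signals in every Et1 array. PRELP has a basic end that binds heparan sulfate and is thought to anchor basement membranes to collagen. Probe set 1416321_s_at of Prelp read 104, 98.3 and 51.3 on control arrays and 15.25, 16.5 and 12.7 on Et1 arrays, with no overlap. The log2 difference of -2.45 did not pass (SE 0.42, limma adjusted p = 0.0615). With 1 array left out it passed in 1 of 6 fits, that without control replicate 3, the lowest control (adjusted p = 0.0408), and the adjusted p reached 0.441 without control replicate 1. Whether Et1 signals this low stood above background was not determined, so the size of the difference is uncertain; it was -1.03 with 50 added to each signal. The other Prelp probe set, 1416322_at, read 4.10 to 7.25 on all arrays.

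The remaining class II genes gave little signal. Lumican, a keratan sulfate proteoglycan of cornea and skin, read 51.7, 26.3 and 49.5 on control arrays and 40.0, 21.8 and 43.2 on Et1 arrays. Within each group replicate 2 was the lowest, and the groups overlapped. Osteomodulin, known from bone, read 4.58 to 8.69 on control arrays and 3.33 to 14.3 on Et1 arrays. Keratocan, known from the cornea, read 3.58 to 5.34 and 2.47 to 3.62. No detection calls were used here, so whether signals this low stood above background was not determined.

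Osteoglycin, or mimecan, is the class III gene among the members listed here and is found along collagen fibrils. Probe set 1419663_at of Ogn read 84.3, 93.3 and 74.3 on control arrays and 34.0, 23.8 and 13.4 on Et1 arrays, with no overlap. The difference of -1.92 did not pass (SE 0.40, limma adjusted p = 0.0994). Probe set 1419662_at of Ogn had a difference of -1.07, and the groups met, since Et1 replicate 3 at 43.7 stood beside control replicate 3 at 43.25. Podocan, the class V member, is known from the wall of arteries. Podn read 105, 113 and 126 on control arrays and 91.96, 68.25 and 111 on Et1 arrays, so Et1 replicate 3 overlapped the controls. Its difference was -0.37 (95% interval -0.87 to 0.14).

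The size of these differences depended on how low signals were treated. With 50 added to each signal before log2, Ogn 1419663_at had -0.87 and Fmod 1456084_x_at -1.11. The Aspn probe sets had -2.16 and -1.69. With that setting limma called 4 family probe sets lower, where 0.262% of all tested were called lower. The added one was 1437685_x_at of Fmod, at -0.88 (adjusted p = 0.0453). Its Et1 mean too lay under 41.0.

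**Figure D3:**
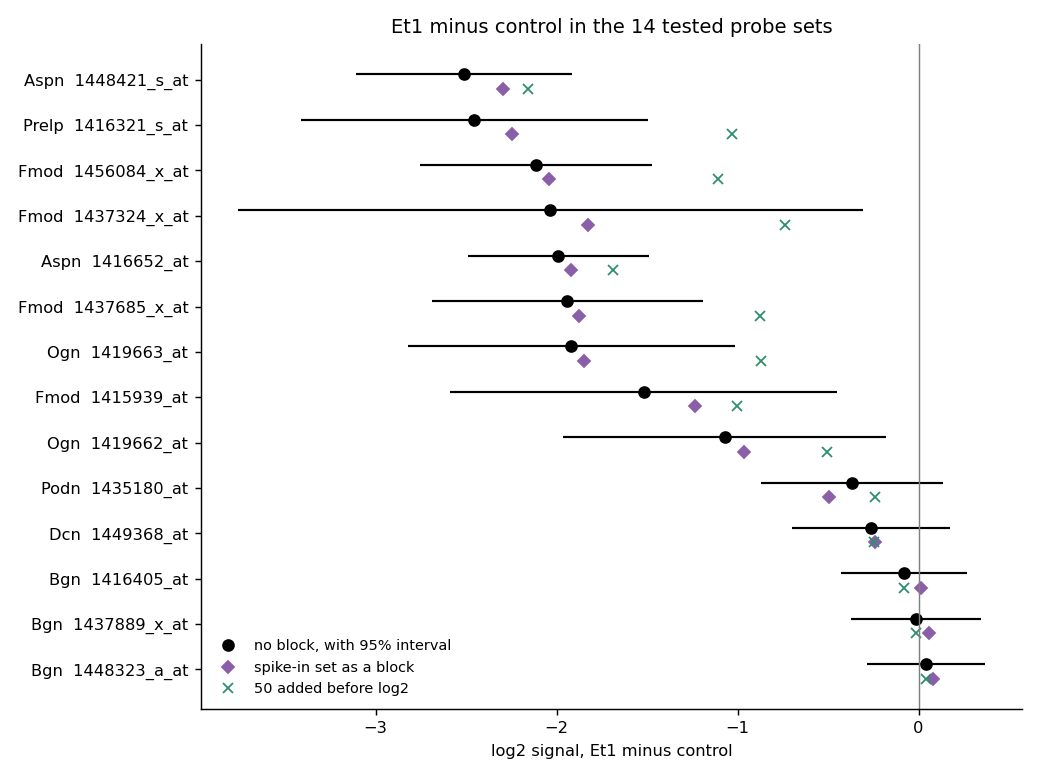
Log2 difference, Et1 minus control, of the 14 tested probe sets, as black points with 95% intervals (no block), purple diamonds (block for the spike-in set) and green crosses (50 added before log2). The Aspn crosses stay at -2.16 and -1.69, whereas that of Prelp moves from -2.45 to -1.03; the intervals of Podn, Dcn and Bgn include 0.

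The split by spike-in set was a second axis, on which the members were not chosen. In a fit that also held the group, 1 of the 14 family probe sets was called between the sets, where limma called 16.7% of all tested; 0 were called higher in the high set, against 6.71%. It was 1448421_s_at of Aspn, lower in the high set by a log2 difference of 0.64 in size (high minus low -0.64, SE 0.13, limma adjusted p = 0.0109). The other Aspn probe set had -0.21 (adjusted p = 0.51), so the Aspn probe sets did not both pass. The 9 lower probe sets of Aspn, Fmod, Prelp and Ogn had set differences of -0.85 to -0.19. Those of Bgn and Dcn ran from -0.28 to -0.058, and Podn had 0.39 (95% interval -0.037 to 0.81). With 13 of the 14 below 0, their median was -0.22, against 0.02 over all tested probe sets, of which 47.7% were below 0.

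Within each set the Et1 difference was negative for the 4 lower genes. In the 8 of their 9 probe sets without overlap of the groups it could not be otherwise. Of the Et1 arrays the low set held only replicate 2, and of the control arrays the high set held only replicate 3. For 1448421_s_at of Aspn it was -2.25 in the low set and -2.35 in the high set. For 1415939_at of Fmod it was -1.72 and -0.76, and for 1456084_x_at -1.92 and -2.17. Prelp had -2.615 and -1.88, and 1419663_at of Ogn -1.90 and -1.80. For 1437889_x_at of Bgn the Et1 difference within the low and high set was 0.087 and 0.030. With a block for the spike-in set, a choice known from earlier work on these arrays, limma called 6 family probe sets lower, against 2.47% of all tested. These were both of Aspn, 1437685_x_at and 1456084_x_at of Fmod, 1419663_at of Ogn (adjusted p = 0.0419) and 1416321_s_at of Prelp (adjusted p = 0.0195). All but those of Aspn had Et1 means under 41.0 and passed the filter through their control signals, so they had to differ. With the replicate number as a block in its place, 7 were called lower, against 1.76% of all tested. They were the same 6 and the brightest Fmod probe set, 1415939_at (limma adjusted p = 0.00995).

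Replicates held similar ranks in many of these probe sets. In 8 of the 9 lower probe sets control replicate 1 was the highest control, and in 8 of 9 control replicate 3 was the lowest. Across the 6 arrays the log2 signal of Aspn followed that of Prelp with a Pearson r of 0.98 and that of Fmod with 0.82, each by its brightest tested probe set. These values hold the group difference. As deviations from the group means they were 0.71 and 0.48. Other pairs of the 7 genes ran both ways by that measure, from 0.93 for Bgn with Ogn through -0.021 for Aspn with Ogn to -0.78 for Bgn with Podn, and Podn had a negative r with each of the other 6. All points share the arrays' scaling, so these correlations are descriptions over 6 arrays.

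Over 11666 genes, each by its brightest tested probe set, likeness was ranked by Pearson r of the log2 signal on the 6 arrays. Group means were not taken out, so these r values hold the group difference. The 5 genes whose signals were most like that of Aspn were Fabp5, Hacd4, Pdlim2, Sertad4 and Plpp3, with r from 0.992 to 0.996. Fabp5, which carries fatty acids, had means of 3240.0 ± 217 in control and 1818 ± 105 in Et1 arrays (SD, n = 3; limma adjusted p = 0.0391). The 5 most like Fmod were Snx25, Col6a1, Ncapd2, Stac2 and Iqgap3, with r from 0.988 to 0.994. Col6a1, a chain of the microfibril collagen VI, had means of 1781 ± 553 and 829 ± 232 (SD, n = 3; limma adjusted p = 0.164).

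The family here means the 10 genes of the symbol rule, which are not all of it. Other leucine-rich repeat proteins of the matrix were listed apart. Of 5 tested genes of that list, 2 had lower and 3 higher means, with a median of 0.095. Among them Lrrc17 fell (log2 difference -2.095, SE 0.27, limma adjusted p = 0.0304). It was the 1 called, where 0.249% of all tested probe sets were called lower. At an unadjusted p under 0.05, 2 were lower, against 6.38% of all tested. Lrrc17, a secreted protein of bone and fibroblasts, gave control signals of 359, 214 and 232.5 and Et1 signals of 77.5, 64.4 and 45.9, with no overlap; its other probe set, below the filter, overlapped at 10.5 to 37.6. Lrrc15, a membrane protein of activated fibroblasts, had -1.09 (adjusted p = 0.249), Chadl 0.47 and Nyx 0.14. Ecm2, the neighbour of Aspn, had a difference of 0.095 in its tested probe set, at signals of 37.7 to 49.97. Epyc and Optc, the neighbours of Kera and Prelp, lay below the filter, at 16.85 to 54.7 and 18.4 to 34.8. Their log2 differences were 0.76 and 0.22, with overlap of the groups in each.

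The collagens that the family binds were lower without passing. Of 13 tested fibrillar and fibril-surface collagens, 13 had lower means, with a median of -0.71. Limma called 0, and 7 were lower at an unadjusted p under 0.05, against 6.38% of all tested probe sets. The smallest p-values were those of Col12a1 at -0.78 (adjusted p = 0.104), Col6a2 at -1.01, Col27a1 at -0.71 and Col6a3 at -0.98. Their median difference between the spike-in sets, high minus low, was -0.50, with 4 of 13 called, where 16.7% of all tested probe sets were. With that set as a block their median was -0.48 and 6 of 13 were called lower, against 2.47% of all.

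Enzymes that build the sugar chains were listed apart. Of all tested probe sets, 6.38% were lower at an unadjusted p under 0.05, and the spike-in block called 2.47% lower. Of 16 tested enzymes of chondroitin and dermatan sulfate, limma called 0, 3 were lower at an unadjusted p under 0.05, and the median was -0.07. Chst12, which sulfates chondroitin, had means of 483 ± 88.2 in control and 223 ± 59.0 in Et1 cultures (SD, n = 3; limma adjusted p = 0.0897, and 0.00308 with the spike-in block, which called 1 of the 16). Dse, the epimerase that turns chondroitin into dermatan sulfate, had -0.56, Csgalnact1 -0.82 and Chpf2 -0.54. Of 6 tested genes of keratan sulfate, the chain of Fmod, 0 were called and 2 were lower at an unadjusted p under 0.05, with a median of -0.40. Fut8 had -0.41, Chst1 -0.58, Chst2 -1.155 and B4galt1 -0.20. Of 17 other proteoglycan core proteins, 0 were called, 3 were lower at an unadjusted p under 0.05 and the median was -0.27. Tgfbr3 (betaglycan) had -0.99, Sdc4 -1.385, Gpc6 -0.69 and Sdc3 -0.63. The spike-in block called 2 of the 17 lower, Tgfbr3 (limma adjusted p = 0.0141) and Sdc4 (0.0281).

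Among proteases known to cut or accompany the family, limma called 0 of 11. At an unadjusted p under 0.05, 3 were lower and 2 higher, with a median of -0.29. Of all tested probe sets 6.38% were lower at that p, and the share higher was not computed. With the spike-in block 2.47% of all were called lower. Adamts5, which cleaves large and small proteoglycans, had means of 378 ± 147 and 121 ± 11.5 (SD, n = 3; limma adjusted p = 0.0701). Pcolce, an enhancer of procollagen processing, had -0.59. The spike-in block called both lower (limma adjusted p = 0.00642 and 0.0341). Htra1, which degrades several matrix proteins, had 0.42, and Mmp9 had 0.40. Among 17 binding partners and receptors 0 were called, 2 were lower at an unadjusted p under 0.05, and the median was -0.06. These 2 were Tgfb3 and Tgfb2, ligands bound by decorin and its relatives, with differences of -1.41 (adjusted p = 0.0834) and -1.13 (adjusted p = 0.0942). The spike-in block called both lower (limma adjusted p = 0.00528 and 0.0214). Tlr2, a receptor of released biglycan, had 0.45 and Itga2 0.52. Of 12 transcripts that respond to transforming growth factor beta, 0 were called, 2 were lower at an unadjusted p under 0.05, and the median was -0.20. Tgfbi had -1.01, Ltbp2 -0.51, Postn -0.37 and Id3 -0.23, and the spike-in block called Tgfbi lower (limma adjusted p = 0.0197). Of the 12, 11 had lower means and 1, Acta2, a higher one at 0.14. Ccn2 and Tagln lay near 0, at -0.021 and -0.046.

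**Figure D4:**
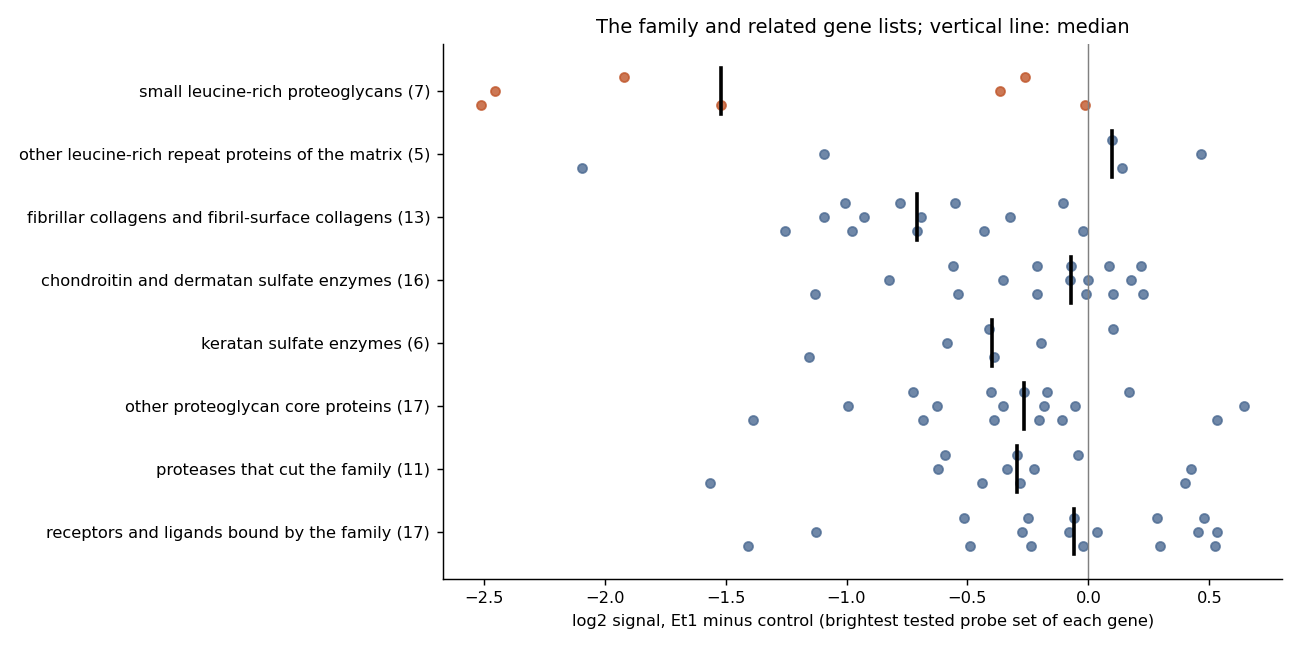
Log2 difference, Et1 minus control, of each tested gene by its brightest tested probe set, for the family (orange) and 7 related lists (blue), with the number of genes in brackets and the median as a vertical line. The family median is -1.52 and that of the collagens -0.71, while the chondroitin and dermatan sulfate enzymes centre at -0.07.

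Markers of other cells were examined beside these results. Summed signals of 8 smooth muscle and pericyte markers ran from 2387 to 3606 in control and from 1248 to 1887 in Et1 arrays and did not overlap. Most of that sum was 1 gene, Cnn1, at 1725 to 2313 and 726 to 1068 (limma adjusted p = 0.051). Of the 7 tested genes of this list 6 had lower means and 1, Rgs5, a higher one, and Des had -0.066. Summed signals of 6 adipocyte markers ran from 820 to 1065 and from 583 to 752, and Fabp4 fell by 1.44. Those of 4 Schwann cell markers ran from 237 to 253 and from 188 to 214. For 8 tendon and bone markers they were 389 to 509 and 304 to 481, and for 8 cartilage markers 344 to 473 and 285 to 429. Of the 4 tested tendon and bone markers, Tnmd, a tendon membrane protein, had -1.33 (limma adjusted p = 0.134), and the other 3 had higher means, with a list median of 0.13. Summed signals of the dermal fibroblast markers ran from 27110 to 41640 and from 20310 to 33200. Of these 12 genes 10 had lower and 2 higher means, with a median of -0.47. Limma called 1, Prrx1 at -0.92, where 0.249% of all tested probe sets were called lower. At an unadjusted p under 0.05, 4 were lower, against 6.38%, namely Prrx1, Col3a1 (-1.26), Thy1 (-1.18) and Pdgfrb (-1.14). The spike-in block called 4 of the 12 lower, against 2.47% of all. Summed signals were 572 to 808 and 656 to 841 for 9 keratinocyte markers, 291 to 380 and 342 to 376 for 8 of melanocytes, 218 to 233 and 230 to 323 for 8 of endothelium, and 443 to 519 and 447 to 537 for 8 of leukocytes. Adipoq read at most 22.95, and Pecam1 and Vwf lay below the filter. Other markers passed it, with 7 of 9 for keratinocytes, Krt5 and Krt14 among them, and 5 of 8 for melanocytes. For endothelium 3 of 8 passed, and for leukocytes 5 of 8. Passing this filter, the median of all probe sets, does not show that such cells were present. The part of any of these cells in the family's differences was not tested.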

How the data were processed

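RNA of 6 cultures was measured on Affymetrix Mouse430_2 arrays. Per the submitters' processing notes, the authors used MAS5 to make the deposited signals, which are intensity values on a linear scale. The sources used here give neither the MAS5 version nor its scaling. Arrays were brought to the same 2% trimmed mean, 138.5. Each of 4 zeros took its array's lowest value above zero before log2. The 64 control probe sets were left out. Probe sets with a mean scaled signal of at least 41.0 were compared with limma 3.58.1 in R 4.3.3 with an intensity trend and without a block, and p-values were adjusted by Benjamini-Hochberg over 22519 probe sets at a threshold of 0.05. The fit was tested on simulated data. Arrays give no count of molecules, so their number limits precision.

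Of 45037 probe sets, 34945 had 1 gene symbol in the platform annotation, 932 several and 9160 none. The members, the gene lists and the spike-in split were chosen with earlier results of these data known. From each related list at most 4 genes were named, by the smallest unadjusted p of the brightest tested probe set, with any gene called. Genes most like Aspn and Fmod were ranked by Pearson r. Acta2, Ccn2, Tagln, marker genes and genomic neighbours named beside these were picked with their values in view. Alternatives were another scaling, filter, added value, variance model or block, and each array left out.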

Additional observations from a re-analysis of the deposited data

How the results depend on the processing

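Limma called 78 of all tested probe sets and 3 of the family. Calls among all probe sets numbered 44 with median centring, 40 with no filter, 7 with no intensity trend, 868 with a block for the spike-in set, and 4 to 229 with 1 array left out. Family calls numbered 0 with no intensity trend, 6 with the spike-in block, and 0 to 4 with 1 array left out. The 3760 calls between spike-in sets became 2408 with median centring, 1425 with no intensity trend, and 796 to 5172 with 1 array left out. The cause was not tested.

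With the replicate number as a block, limma called 567 probe sets, 7 of the family. The labels do not say that same-numbered cultures share cells, so the main fit had no block. The deviations of same-numbered arrays correlated at -0.12, 0.44 and 0.45, and not every array correlated best with its own number. Arrays of replicates 2 and 3 shared a spike-in set and those of replicate 1 did not. These values therefore cannot decide whether same-numbered cultures shared cells.

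Among the member differences, those of Bgn, near 0, turned sign. For 1416405_at (-0.20 to 0.070 over arrays left out) they were 0.070 without Et1 replicate 3 and 0.015 with the spike-in block. For 1437889_x_at (-0.11 to 0.16) they were 0.059 with that block and 0.0070 to 0.16 without control replicate 1 or 2 or Et1 replicate 3 (0.028 without control replicate 2). For 1448323_a_at (-0.044 to 0.20) they were -0.10 with quantile normalization, -0.010 with median centring, and -0.044 and -0.028 without Et1 replicate 1 and 2.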
